A study of Mus musculus with 6 samples.

Results

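The splicing factors examined here are all genes of the deposited transcript table whose symbol begins with Srsf and a number, Tra2a or Tra2b, Hnrnp, or Rbm and a number. This rule, which uses names only, found 78 of the 52134 gene symbols in the table, namely 11 Srsf, 3 Tra2, 21 Hnrnp and 43 Rbm symbols. RNA was taken from the whole colon of 3 mice lacking Tnfrsf1a (Tnfrsf1a-/-, called R1ko) and of 3 wild-type mice (WT), all males of 12 weeks on the C57Bl/6J strain. Tnfrsf1a encodes TNFR1, the main signalling receptor for the cytokine TNF. The labels name no other allele and no agent for any of the 6 mice, and they do not say whether the mice were littermates or which bases of Tnfrsf1a were removed. Libraries were made from polyadenylated RNA and sequenced as paired reads, and the values are TPM, a length-normalised abundance estimated for each annotated transcript and scaled to the same total in every library.

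Splicing removes introns from a primary transcript, and splicing factors decide which exons and splice sites are used. SR proteins and the related Tra2 proteins bind exonic enhancers and mostly promote inclusion of the exon, whereas many hnRNP proteins bind silencers and oppose it, and the RBM symbols collect proteins with an RNA-recognition motif and diverse roles. Many of these genes are known to limit their own protein by making transcripts with a retained intron or with a "poison" exon that carries an early stop codon and exposes the RNA to nonsense-mediated decay, so the level of a gene and the mix of its transcripts were both examined.

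Of the 78 symbols, 76 had values (Rbm3os and Rbm46os, named as antisense to an RBM gene, had none) and 66 averaged 1 TPM or more across the 6 libraries, the level required for testing. The other 10 lay below that level, 2 of them (Rbm31y and Tra2b-ps) at 0 in every library, and Srsf12, an SR protein, had the highest mean among the 10 with 0.443 TPM. The tested genes comprised 12 SR and Tra2 genes, 20 hnRNP genes and 34 RBM genes. The 76 genes with values had 447 transcripts, spread unevenly, with up to 21 transcripts of at least 1 TPM in a single gene.

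The full-length transcript Tnfrsf1a-201 had 23.5, 20.4 and 25.6 TPM in R1ko replicates 1, 2 and 3, against 67.6, 39.9 and 59.1 TPM in the WT replicates (limma with Benjamini-Hochberg adjustment, adjusted p 0.197). The shorter Tnfrsf1a-202 lay the other way, with 18.01, 12.4 and 14.1 TPM in R1ko against 1.20, 1.20 and 0.890 TPM in WT (limma with Benjamini-Hochberg adjustment, adjusted p 0.00125). The sum over the targeted gene overlapped, at 49.2, 36.5 and 46.9 TPM in R1ko against 71.2, 44.1 and 63.0 TPM in WT. Nnt, a mitochondrial gene known to carry a deletion in the C57BL/6J substrain and not in some other C57BL/6 substrains, had 29.0, 25.8 and 27.5 TPM in R1ko against 11.4, 6.87 and 10.2 TPM in WT, without overlap (limma with Benjamini-Hochberg adjustment, adjusted p 0.000901). The part of strain background in the results below was not tested. All 10 markers of colon epithelium were present, with summed levels of 8123 to 8831 TPM in R1ko and 6434 to 8842 TPM in WT. WT replicate 2 stood apart, since transcripts without a gene name held 27.4% of its TPM, against 1.86 to 7.23% in R1ko and 2.79 to 4.05% in the other WT libraries. The fixed total left all named genes of WT replicate 2 with less of that total. Of the 66 splicing factor genes 43 were lowest there, a count not set beside its share over all genes. Results are therefore given as deposited and, where they differ, after median-of-ratios scaling or without that library. Summed levels of 5 adipocyte markers were 173, 216 and 240 TPM in R1ko against 143, 50.0 and 106 TPM in WT, without overlap, while those of 10 skeletal muscle markers overlapped, with 1409 to 3711 TPM in R1ko and 221 to 3705 TPM in WT. All 10 skeletal muscle markers nevertheless had a positive log2 fold change and an unadjusted p under 0.05 in limma (1 of 10 after scaling), with a median of 1.37. All 6 B cell markers had a negative one (median -0.87), 5 with an unadjusted p under 0.05 in limma (1 after scaling). The 9 markers of squamous epithelium and hair follicle were divided, with 6 above and 3 below 0 and a median of 0.47. Those 3 passed as lower in R1ko in limma with Benjamini-Hochberg adjustment (0 after scaling), while the summed levels overlapped. All 5 adipocyte markers had a positive log2 fold change (median 1.08). For 5 of 5 the unadjusted p in limma was under 0.05, also after scaling. In limma with Benjamini-Hochberg adjustment 1 passed as higher in R1ko (0 after scaling). All 7 fibroblast markers lay below 0 (median -0.17), 0 with an unadjusted p under 0.05 in limma (1 after scaling). Of the 10 epithelium markers 9 lay above 0 (median 0.21), and 1 had an unadjusted p under 0.05 in limma (3 after scaling). The part of these tissues and cell types in the results below was not tested, and in a bulk sample fewer cells of a type and less RNA per cell cannot be told apart.

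The summed level of the splicing factor genes did not differ beyond the spread between mice. Together they had 6472, 5607 and 6489 TPM in the R1ko libraries, against 7426, 5126 and 7154 TPM in the WT libraries. The R1ko values all lay inside the WT range. Of 66 genes tested, none passed an adjusted p of 0.05 in limma with Benjamini-Hochberg adjustment over 14248 genes, where 0.267% of all genes were called, and none had an unadjusted p under 0.05, against 3.69% of all genes. No splicing factor gene had groups that did not overlap, against 4.98% of all genes. The differences ran from a log2 fold change of -0.35 to 0.28, with 34 above and 32 below 0 (44.3% of all genes lay below 0), and their median was 0.0066, beside 0.025 for all genes. After scaling, 12 of the 66 had an unadjusted p under 0.05 in limma, 1 higher and 11 lower, where 11.3% of all genes did, and none passed, where 0.0421% of all genes did (smallest Benjamini-Hochberg adjusted p 0.334). Without WT replicate 2, 55 of the 66 lay below 0, beside 79.5% of all genes, with a median of -0.16 beside -0.13, and 16 had an unadjusted p under 0.05 in limma, where 7.94% of all genes did.

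SR and Tra2 genes had a median log2 fold change of -0.056 over 12 tested genes. Srsf5, an SR protein first known from regenerating rat liver, was the most abundant of them. It had 495, 383 and 485 TPM in R1ko, against 608, 424 and 615 TPM in WT. The highest WT libraries lay above all R1ko libraries, but WT replicate 2 fell among the R1ko values, and the log2 fold change of -0.26 ± 0.20 (SE) did not pass in limma with Benjamini-Hochberg adjustment (adjusted p 0.9999, and 0.334 after scaling). Srsf11, which carries an arginine/serine-rich domain and binds other splicing factors, had 130, 79.5 and 107 TPM in R1ko, against 145, 96.1 and 153 TPM in WT. Srsf10, which represses splicing when it is dephosphorylated, had 57.3, 39.4 and 52.9 TPM in R1ko, against 73.7, 42.3 and 69.8 TPM in WT. In both genes replicate 2 was the lowest library of its genotype and the groups overlapped. Without WT replicate 2, the log2 fold changes of Srsf11 and Srsf10 were -0.53 and -0.54 (limma, unadjusted p 0.022 and 0.011). Neither gene passed after scaling (limma with Benjamini-Hochberg adjustment, adjusted p 0.405 and 0.393). Srsf9 lay the other way, with 51.3, 55.9 and 60.6 TPM in R1ko against 63.0, 37.6 and 47.6 TPM in WT, and overlapped as well. Among the abundant genes, Srsf1, the founding SR protein, averaged 119 ± 16.8 TPM in R1ko and 128 ± 26.4 TPM in WT (SD, n = 3 each). Srsf2, which also acts in transcription elongation, averaged 145 ± 23.9 TPM in R1ko and 165 ± 37.5 TPM in WT. Srsf3, the smallest SR protein, averaged 146 ± 7.51 TPM in R1ko and 146 ± 27.7 TPM in WT, a difference whose sign changed with the scaling (log2 fold change 0.017 as deposited and -0.013 scaled).

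The hnRNP genes were the most abundant group, at 3606, 3198 and 3571 TPM in sum in R1ko against 4070, 2760 and 3910 TPM in WT, and their median log2 fold change was -0.0047 over 20 genes. Hnrnpa2b1, which packages nascent RNA and directs RNA transport, had 488, 441 and 473 TPM in R1ko, against 524, 368 and 496 TPM in WT. Hnrnpk, a binder of C-rich sequence, averaged 438 ± 27.6 TPM in R1ko and 454 ± 79.7 TPM in WT. Hnrnpf, a binder of G-rich sequence, averaged 381 ± 31.1 TPM in R1ko and 385 ± 70.7 TPM in WT. The R1ko libraries were closer to each other than the WT libraries in each of these 3 genes, and lay within the WT range. Hnrnpab averaged 276 ± 59.3 TPM in R1ko and 281 ± 57.1 TPM in WT, and Hnrnpa1, a counterpart of SRSF1 in the choice of splice sites, averaged 225 ± 10.7 TPM in R1ko and 238 ± 42.4 TPM in WT. Hnrnph1, which binds runs of G beside exons, had 178, 124 and 186 TPM in R1ko, against 242, 139 and 222 TPM in WT. Hnrnpd, which binds AU-rich elements and affects mRNA decay, had 167, 131 and 158 TPM in R1ko, against 199, 139 and 195 TPM in WT. In both genes 2 WT libraries stood above all R1ko libraries and WT replicate 2 did not, and neither passed in limma with Benjamini-Hochberg adjustment (adjusted p 0.9999, and 0.411 and 0.334 after scaling). Hnrnpu, a scaffold protein of chromatin, averaged 148 ± 26.4 TPM in R1ko and 166 ± 38.1 TPM in WT. Hnrnpa0, an hnRNP of the A/B family, averaged 87.0 ± 6.49 TPM in R1ko and 77.6 ± 13.3 TPM in WT. Hnrnpf lies 7.42 Mb from Tnfrsf1a on chromosome 6, and the other 3 splicing factor genes of that chromosome (Tra2a, Hnrnpa2b1 and Rbm28) lie more than 73 Mb from it.

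Among the RBM genes the median log2 fold change was 0.028 over 34 genes. Rbm3, a cold-inducible RNA-binding protein, had 399, 408 and 389 TPM in R1ko, against 527, 392 and 486 TPM in WT. The R1ko libraries were close together and WT replicate 2 fell among them. Rbm39, a partner of the splicing factor U2AF and a coactivator of transcription, had 227, 168 and 227 TPM in R1ko, against 260, 201 and 269 TPM in WT, and Rbm5, a regulator of the splicing of apoptosis genes, had 58.4, 34.1 and 59.2 TPM in R1ko against 66.8, 47.4 and 70.1 TPM in WT. In both, replicate 2 was the lowest library of its genotype and the groups overlapped. Without WT replicate 2, the log2 fold changes of Rbm3, Rbm39 and Rbm5 were -0.34, -0.37 and -0.48 (limma, unadjusted p 0.0018, 0.030 and 0.072). After scaling, none of these genes passed (limma with Benjamini-Hochberg adjustment, adjusted p 0.424, 0.376 and 0.468). Rbm48, a protein of the minor spliceosome, had the lowest log2 fold change of all members, -0.35 ± 0.24 (SE), with 7.62, 6.28 and 7.32 TPM in R1ko against 12.0, 6.43 and 9.79 TPM in WT. Rbm15b, which takes part in the methylation of adenosine in RNA, had the highest, 0.28 ± 0.24, with 12.8, 9.50 and 10.4 TPM in R1ko against 10.6, 6.70 and 9.69 TPM in WT. Neither passed in limma with Benjamini-Hochberg adjustment (adjusted p 0.9999 for both, and 0.359 and 0.434 after scaling). Without WT replicate 2, their log2 fold changes were -0.59 and 0.090 (limma, unadjusted p 0.0080 and 0.60). Rbm17, which acts at the second step of splicing, averaged 80.4 ± 7.01 TPM in R1ko and 84.0 ± 16.9 TPM in WT. Rbm25, which binds an exonic enhancer in an apoptosis gene, averaged 67.8 ± 8.19 TPM in R1ko and 75.7 ± 14.5 TPM in WT.

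**Figure D1:**
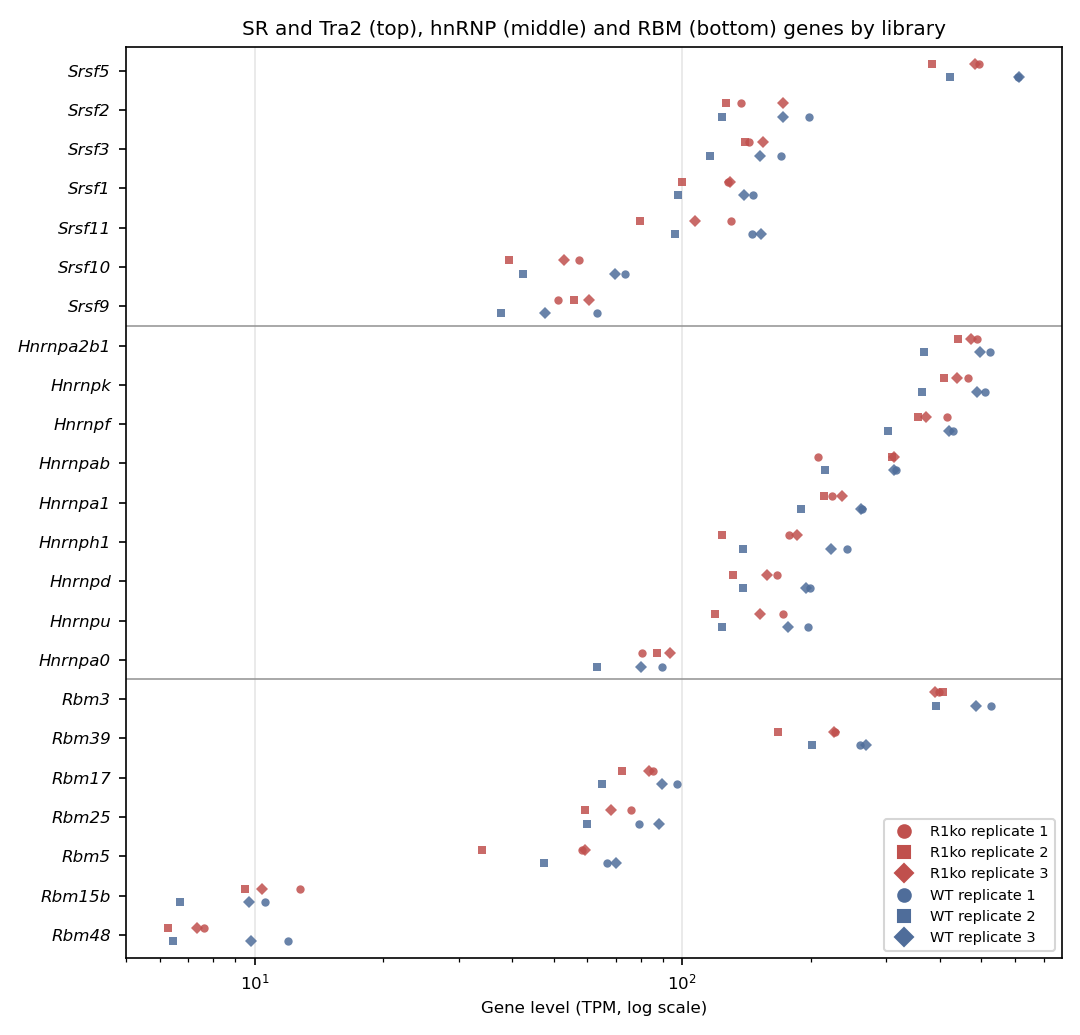
Summed TPM (log scale) of the 23 splicing factor genes named by level or by smallest p, with R1ko libraries (red) above WT libraries (blue) in each row and 1 symbol per replicate. In each gene the ranges of the 2 genotypes overlap, and replicate 2 (squares) is often the lowest library of its genotype.

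Single transcripts were then compared. Of 295 splicing factor transcripts tested, 1 passed in limma with Benjamini-Hochberg adjustment over 31002 transcripts, of which 0.0419% were called. This was Rbm39-216 (ENSMUST00000146288), which had 7.01, 4.52 and 10.02 TPM in the R1ko libraries and was listed at 0 in all 3 WT libraries (adjusted p 0.00314). The R1ko libraries all stood above WT, and no fold is given against a group at 0. It reached the mean of 1 TPM required for testing through the R1ko libraries alone, and its difference was already known from earlier results of these data, so its values and its call are a description and support nothing. It no longer passed without WT replicate 2 (limma adjusted p 0.10), with the replicate number as a block (0.0885) or with no filter on low values (0.262). In all, 34 splicing factor transcripts had an unadjusted p under 0.05 in limma, 5 of them higher and 29 lower in R1ko, where 2.06% of all transcripts were higher and 2.98% lower. These 34 became 14 without R1ko replicate 2 (3.89% of all transcripts), 17 without WT replicate 1 (5.11%), 19 without WT replicate 3 (4.20%), 51 without WT replicate 2 (7.92%), 46 without R1ko replicate 1 (7.14%) and 62 after scaling (10.9%).

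Rbm39-216 is annotated as a protein-coding transcript of 754 bases and 6 exons, with the weakest support level of the annotation (5), against 2711 bases and 17 exons for Rbm39-201. Within the part of the gene that it covers, it lacks 1 exon of 66 bases, the fifth of Rbm39-201, at chr2:156167685-156167750 on the minus strand of mm10. That length is a multiple of 3, so the reading frame continues past it. Rbm39-216 ends with exon 7 of Rbm39-201, so the later exons are absent from it too. The sequences below, read from the GENCODE M21 transcripts, show the 66-base exon and the join that differs between the 2 transcripts. Capitals mark the 2 bases on each side of the join.
Rbm39 exon left out of Rbm39-216: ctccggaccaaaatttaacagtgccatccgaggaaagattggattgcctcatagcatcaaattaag
Rbm39-216 junction, chr2:156167567-156172852, minus strand: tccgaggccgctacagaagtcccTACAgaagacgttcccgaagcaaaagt
Rbm39-201 junction, chr2:156167726-156172852, minus strand: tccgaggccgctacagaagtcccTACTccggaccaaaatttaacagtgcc
The 50 bases of the Rbm39-216 junction occurred in 1 of the 25 Rbm39 transcripts searched, and those of the Rbm39-201 junction in 8. The estimate of Rbm39-216 therefore turned on reads at this single join and on how the quantification shared the remaining reads among overlapping transcripts. Counted over the transcripts that contain or splice past the exon, it was included in 95.6, 96.3 and 93.9% of the TPM in R1ko, against 100% in each WT library. The difference between the genotypes was thus a few percent of the gene's spliced transcripts.

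Rbm39 also has an exon with a stop codon, of 73 bases at chr2:156178880-156178952 on the minus strand, which Rbm39-225 includes. Its bases up to the in-frame stop codon, in capitals, are printed because they show what separates this transcript from the coding form.
Rbm39 exon with a stop codon, chr2:156178881-156178952: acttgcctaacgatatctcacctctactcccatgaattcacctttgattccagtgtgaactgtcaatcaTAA
The transcripts with this exon were Rbm39-208, Rbm39-212, Rbm39-218, Rbm39-222 and Rbm39-225, and Rbm39-208 is annotated with a retained intron. The exon was included in 31.3, 30.8 and 28.3% of the TPM of transcripts that contain or splice past it in R1ko, against 34.0, 37.0 and 36.6% in WT. All R1ko libraries lay below all WT libraries, and the exact two-sided permutation test cannot give less than p = 0.1 with 3 mice against 3. The part of the retained-intron form in this difference was not tested. Rbm39-225 itself, the second most abundant transcript of the gene, had 39.3, 26.9 and 32.3 TPM in R1ko against 37.1, 35.0 and 44.6 TPM in WT, with overlap.

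**Figure D2:**
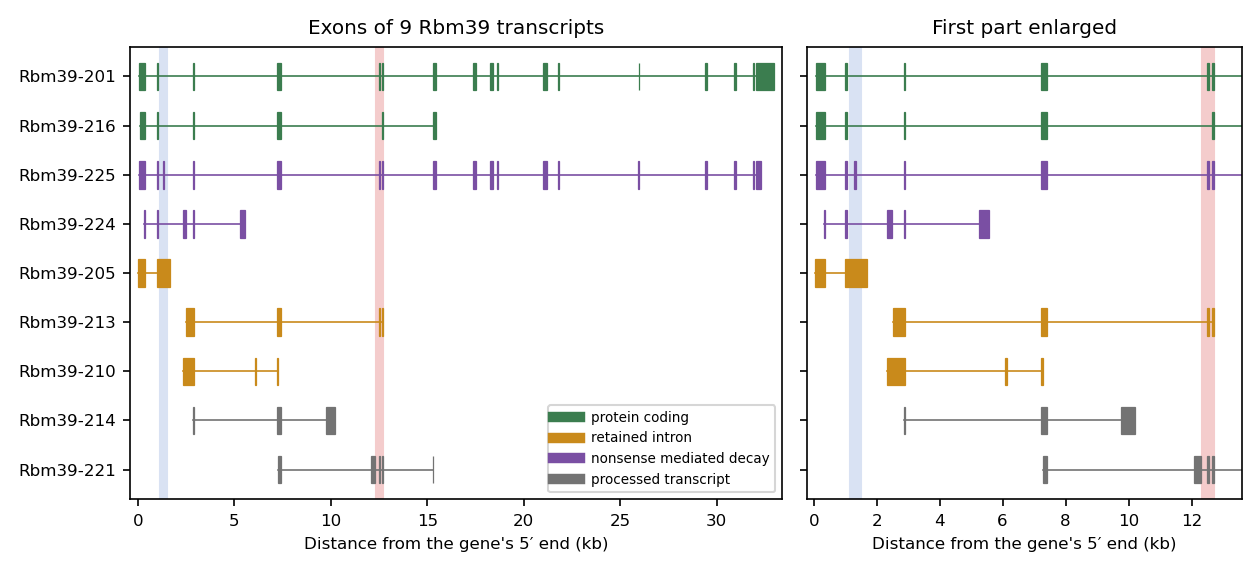
Exons (boxes) of 9 Rbm39 transcripts by distance from the gene's 5′ end in kb, coloured by annotated type, with the first part enlarged on the right. The red band marks the 66-base exon that Rbm39-216 lacks, and the blue band the 73-base exon with a stop codon in Rbm39-225.

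The coding and the other transcripts of Rbm39 lay on different sides. Rbm39-201, the main coding transcript, had 61.8, 51.3 and 61.2 TPM in R1ko, against 55.8, 45.7 and 58.2 TPM in WT. Its share of the gene was 27.2, 30.6 and 27.0% in R1ko, against 21.4, 22.8 and 21.6% in WT. These shares did not overlap, although the levels did. Rbm39-221, a processed transcript, had 1.87, 2.27 and 2.20 TPM in R1ko against 6.07, 4.47 and 7.003 TPM in WT. Rbm39-210, annotated with a retained intron, had 9.29, 6.44 and 12.0 TPM in R1ko against 19.2, 13.8 and 16.3 TPM in WT. Both were lower in every R1ko library than in any WT library, without passing in limma with Benjamini-Hochberg adjustment (adjusted p 0.316 and 0.812). The same separation was seen in Rbm39-214, a processed transcript, with 3.96, 2.60 and 3.00 TPM in R1ko against 7.01, 4.93 and 6.76 TPM in WT. Rbm39-224, annotated for nonsense-mediated decay, had 14.8, 10.4 and 8.43 TPM in R1ko against 22.1, 16.2 and 18.2 TPM in WT, again without overlap. Rbm39-211, with a retained intron, had 1.92, 2.09 and 2.68 TPM in R1ko against 4.73, 3.25 and 4.45 TPM in WT. Among the retained-intron forms, Rbm39-205 averaged 11.8 ± 3.00 TPM in R1ko and 17.9 ± 3.42 TPM in WT, and Rbm39-213 averaged 10.4 ± 1.91 TPM in R1ko and 15.5 ± 3.01 TPM in WT. The groups overlapped in Rbm39-205 and not in Rbm39-213. Across the table, a negative log2 fold change was found in 83.0% of retained-intron, 63.6% of processed and 51.4% of decay-annotated transcripts. Rbm39-204, a further transcript of the gene, had 13.5, 11.3 and 18.2 TPM in R1ko against 5.80, 8.79 and 12.3 TPM in WT, and Rbm39-223 averaged 8.08 TPM in R1ko and 6.76 TPM in WT, both with overlap. The other 9 transcripts of at least 1 TPM had means over all libraries from 1.65 to 11.9 TPM, and each overlapped. The sum of all Rbm39 transcripts not annotated as protein-coding was 133, 92.9 and 119 TPM in R1ko, against 181, 134 and 182 TPM in WT. The groups were just apart, since R1ko replicate 1 came close to WT replicate 2.

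**Figure D3:**
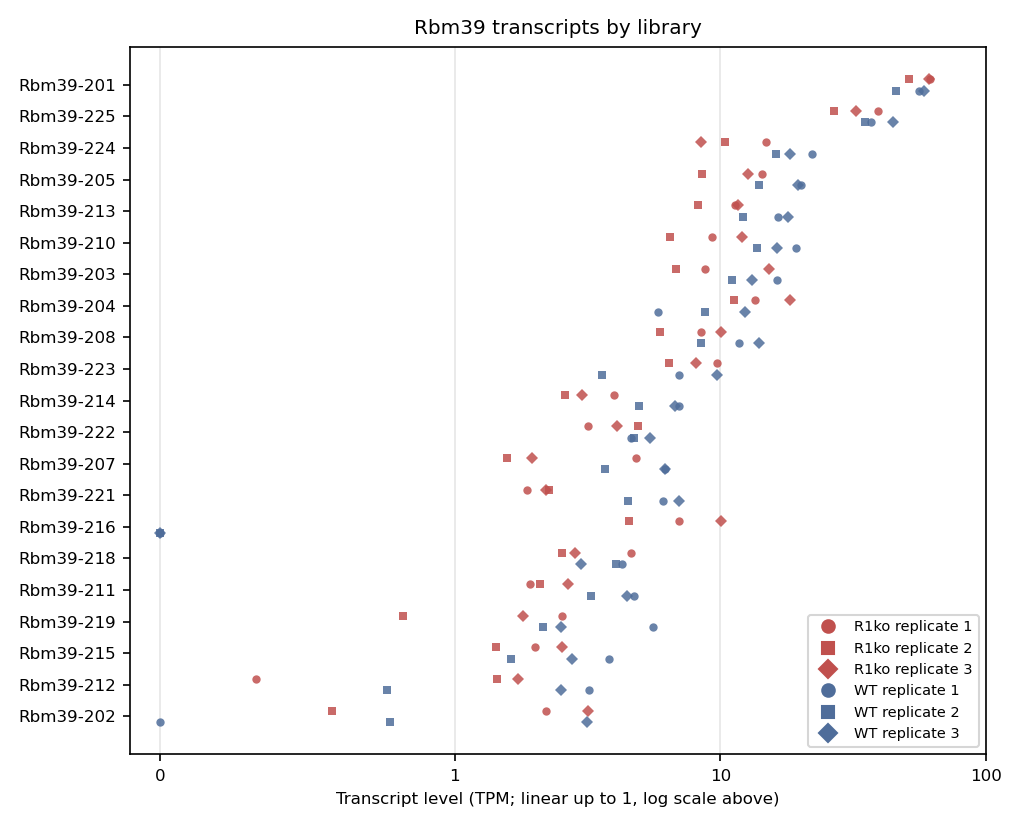
TPM of the 21 Rbm39 transcripts with a mean of at least 1 TPM, linear up to 1 and on a log scale above, with R1ko libraries (red) above WT libraries (blue) in each row. Rbm39-216 lies at 4.52 to 10.02 TPM in R1ko and at 0 in WT, while Rbm39-210, Rbm39-214, Rbm39-221 and Rbm39-224 lie lower in every R1ko library.

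Across the splicing factors, transcripts annotated with a retained intron held a lower share in R1ko, as did processed transcripts. Retained-intron transcripts held 11.9, 7.79 and 10.97% of the splicing factors' TPM in R1ko, against 14.0, 12.9 and 13.9% in WT. All R1ko libraries lay below all WT libraries, R1ko replicate 2 furthest. The remaining genes of the table moved with them, at 3.42, 2.42 and 3.28% in R1ko against 3.85, 3.52 and 3.93% in WT, so the lower share was not particular to splicing factors. The share was 24.0, 14.6 and 21.2% for SR and Tra2 genes in R1ko, against 26.3, 25.5 and 26.4% in WT. For hnRNP genes it was 7.45, 5.71 and 7.04% in R1ko, against 9.03, 8.12 and 8.66% in WT. For RBM genes it was 10.9, 6.59 and 9.95% in R1ko, against 13.0, 11.4 and 13.3% in WT. SR and Tra2 genes thus carried the highest share in every library, and the 3 groups each had R1ko below WT without overlap (exact two-sided permutation p = 0.1, the smallest that 3 against 3 can give). Protein-coding transcripts held 74.6, 81.6 and 75.4% of the splicing factors' TPM in R1ko, against 72.2, 73.4 and 71.1% in WT. Processed transcripts, which have no open reading frame by annotation, held 5.65, 3.39 and 5.93% in R1ko, against 6.57, 6.26 and 7.61% in WT, without overlap. Their share overlapped in SR and Tra2 genes, at 15.3, 9.62 and 16.4% in R1ko against 15.4, 17.1 and 20.3% in WT, and in the other genes of the table, at 3.65, 3.22 and 3.58% in R1ko against 3.75, 3.57 and 3.83% in WT. Transcripts annotated for nonsense-mediated decay held 7.78, 7.19 and 7.66% in R1ko, against 7.28, 7.42 and 7.35% in WT, and overlapped.

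**Figure D4:**
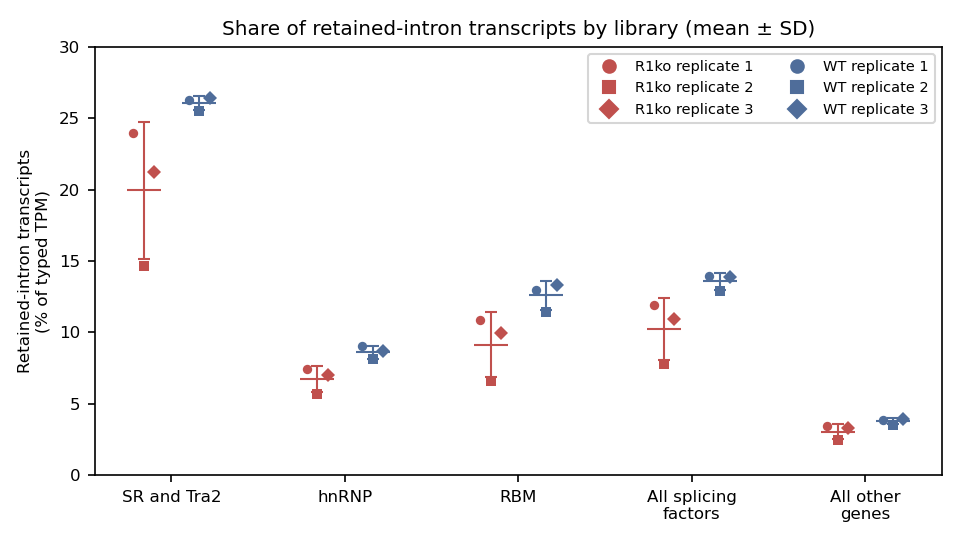
Share of retained-intron transcripts (% of the TPM of transcripts with an annotated type) per library, with R1ko (red) left of WT (blue), horizontal bars for the mean and whiskers for the SD over 3 mice. R1ko lies below WT in each of the 3 groups of splicing factors and also in all other genes, and R1ko replicate 2 (square) is the lowest library.

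By single transcripts, 69 of the 73 tested retained-intron transcripts of splicing factors had a negative log2 fold change, with a median of -0.47. Over all 4807 tested retained-intron transcripts of the table, 83.0% had a negative one, with a median of -0.34, and over all tested transcripts of any type 50.1% did. Among the 73, 18 had an unadjusted p under 0.05 in limma and all 18 were lower, where 8.05% of all retained-intron transcripts were, and 0 passed after Benjamini-Hochberg adjustment. These 18 became 3 without R1ko replicate 2 (2.48% of all retained-intron transcripts lower), 4 without WT replicate 1 (3.58%) and 2 without WT replicate 3 (2.45%), and 30 after scaling (18.1%). Without R1ko replicate 2, the most extreme library, 63 of the 73 were negative, with a median of -0.24, beside 62.8% of all retained-intron transcripts. Processed transcripts were negative in 23 of 25 cases (63.6% over the whole table), decay-annotated transcripts in 22 of 35 (51.4%), and protein-coding transcripts in 67 of 161 (40.1%). As a share of the gene, where library scaling drops out, 37 of 38 retained-intron transcripts of splicing factors were lower in R1ko by their log2 odds, with a median of -0.40, beside 76.0% and a median of -0.27 for all 3488 such transcripts. Decay-annotated transcripts lay the other way, with 14 of 19 above 0, beside 52.3% of all such transcripts.

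The retained-intron transcripts read through splice sites that coding transcripts of the same gene use. Among the 73, 67 transcripts of 26 genes covered at least 1 such site inside the coding region, where 46 of 47 distinct donor sites began with GT and 51 of 52 distinct acceptor sites ended with AG, the usual dinucleotides of introns. The sites below belong to transcripts named in the text and are 20 bases of exon and 20 of intron, with the intron's dinucleotide in capitals. They show where the retained sequence starts or ends.
Srsf3-204, donor, chr17:29038605-29038644, plus strand: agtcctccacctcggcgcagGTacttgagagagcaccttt
Srsf11-208, donor, chr3:158026705-158026744, minus strand: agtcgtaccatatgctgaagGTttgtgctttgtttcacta
Hnrnpl-206, donor, chr7:28815333-28815372, plus strand: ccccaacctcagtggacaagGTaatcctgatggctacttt
Rbm25-206, donor, chr12:83660659-83660698, plus strand: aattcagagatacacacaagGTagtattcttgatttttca
Rbm25-206, acceptor, chr12:83663959-83663998, plus strand: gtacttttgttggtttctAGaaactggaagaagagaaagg
Rbm39-210 and Rbm39-213, acceptor, chr2:156177366-156177405, minus strand: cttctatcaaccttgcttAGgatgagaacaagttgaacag
Rbm48-203, donor, chr5:3591650-3591689, minus strand: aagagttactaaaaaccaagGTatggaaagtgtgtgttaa
Srsf3-204 had 16.4, 9.02 and 16.3 TPM in R1ko against 26.1, 15.8 and 23.2 TPM in WT, and Srsf11-208 had 12.2, 5.89 and 9.61 TPM in R1ko against 20.8, 11.3 and 17.5 TPM in WT. Both were chosen after their values were seen and overlapped in level, but their shares of the gene did not. Srsf3-204 made up 11.5, 6.42 and 10.6% of Srsf3 in R1ko, against 15.3, 13.7 and 15.3% in WT. Rbm25-206 had 3.14, 1.66 and 2.32 TPM in R1ko against 5.39, 3.46 and 5.33 TPM in WT, and did not overlap.

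Each gene was then divided into protein-coding transcripts and all others with an annotated type. The others included those annotated with a retained intron, for nonsense-mediated decay or as processed transcripts. The share of the others could be tested in 38 splicing factor genes, and none passed in limma with Benjamini-Hochberg adjustment over 6055 genes (0.033% of all genes called, smallest adjusted p among the 38 0.291). Of the 38, 6 had an unadjusted p under 0.05 and all 6 were lower in R1ko, where 11.7% of all genes were. The difference was negative in 31 of 38, beside 75.4% of all genes, and in 28 of 38, beside 68.3%, without R1ko replicate 2. In 10 of 38 all R1ko libraries lay below all WT libraries, where 17.9% of all genes did, and in 0 of 38 all lay above, where 2.28% of all genes did. R1ko replicate 2 was the lowest library in 27 of the 38, a count not set beside its share over all genes.

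The 6 genes came from all 3 groups. They were chosen by the smallest p in limma, which favours separated groups. Their separation is thus not comparable with the 17.9% of all genes whose R1ko libraries all lay below WT. Rbm39 had 58.8, 55.5 and 52.4% of its TPM in the other transcripts in R1ko, against 69.4, 66.8 and 67.6% in WT, with a log2 odds difference of -0.76 ± 0.18 (SE). Srsf10 had 38.97, 31.4 and 34.5% in R1ko, against 46.9, 45.9 and 50.7% in WT. Hnrnpl, which binds CA repeats, had 26.4, 16.7 and 30.8% in R1ko, against 38.1, 36.9 and 39.03% in WT. In all 3 genes every R1ko library lay below every WT library. Rbm5 had 59.6, 51.8 and 58.9% in R1ko, against 76.2, 63.2 and 68.7% in WT. Srsf11 had 66.8, 53.2 and 60.9% in R1ko, against 70.5, 71.2 and 70.3% in WT. Hnrnph1 had 61.0, 46.8 and 58.0% in R1ko, against 70.3, 61.4 and 68.3% in WT. These 3 did not overlap either, Hnrnph1 by the narrowest margin, 61.0% in R1ko replicate 1 against 61.4% in WT replicate 2. In level, only the other transcripts of Rbm39 were lower without overlap among the 38 genes. The coding transcripts did not overlap in 2 of the 38, both higher in R1ko and chosen after their values were seen. Neither count was set beside its share over all genes, so both are descriptions only. The coding transcripts of Hnrnpl had 181, 164 and 153.1 TPM in R1ko against 152.9, 105 and 152.9 TPM in WT. Those of Rbm4b had 4.10, 4.13 and 5.06 TPM in R1ko against 3.46, 3.97 and 4.08 TPM in WT. In both genes the groups were just apart.

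The 3 highest mean shares belonged to Hnrnpu, Srsf3 and Srsf5. Hnrnpu had 82.6, 78.8 and 80.0% of its TPM outside coding transcripts in R1ko, against 81.2, 82.6 and 81.2% in WT. Srsf3 had 69.2, 67.7 and 72.4% in R1ko, against 71.2, 73.1 and 73.8% in WT. Srsf5 had 65.1, 41.5 and 70.5% in R1ko, against 69.3, 70.2 and 74.6% in WT. All 3 overlapped, and R1ko replicate 2 stood far below the rest in Srsf5. In 13 of the 38 genes the mean share exceeded that of the coding transcripts.

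**Figure D5:**
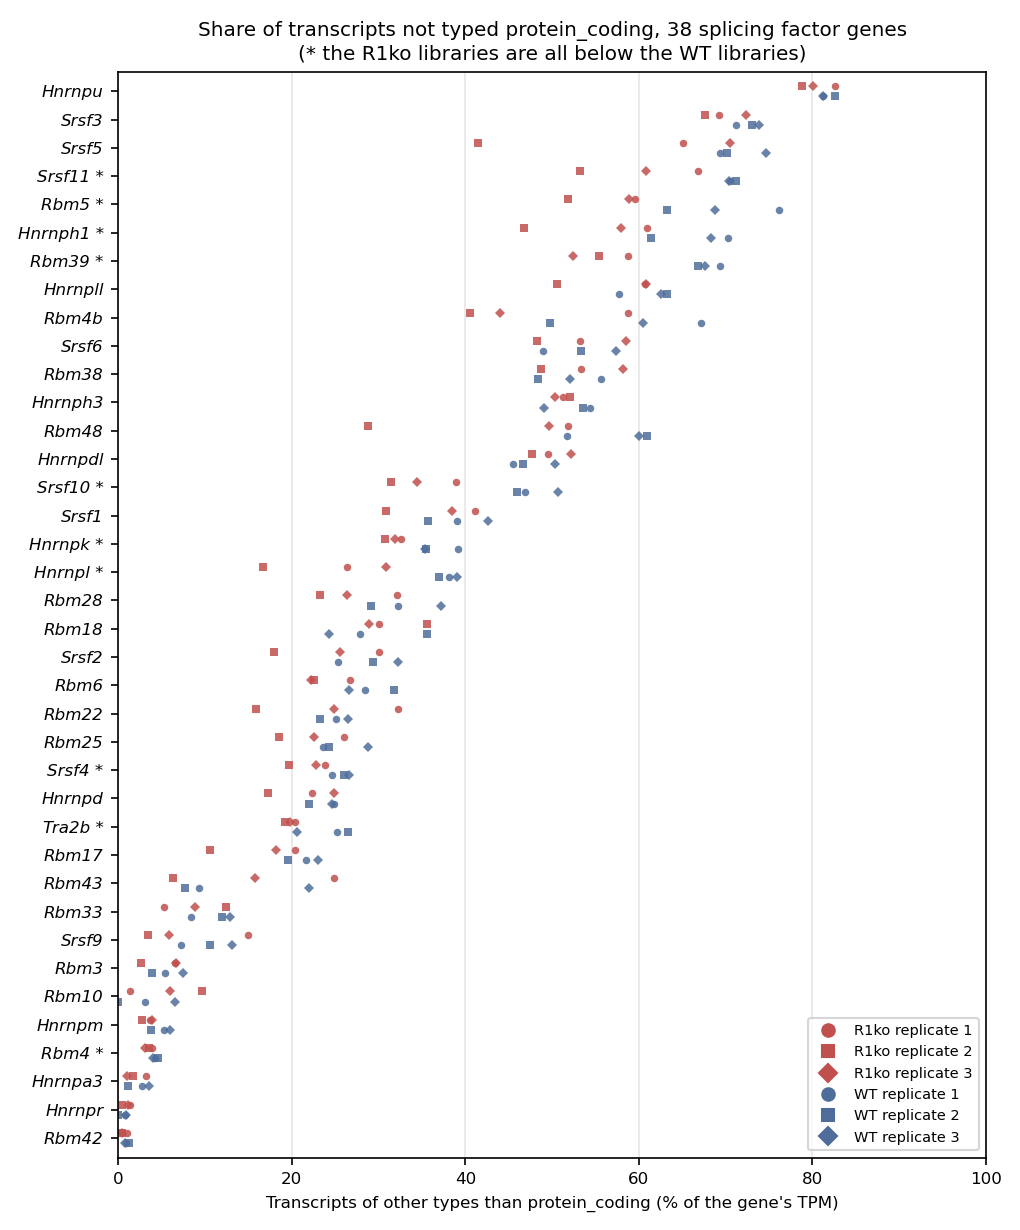
Share of each gene's TPM in transcripts not annotated as protein-coding, for 38 splicing factor genes ordered by their mean, with R1ko libraries (red) above WT libraries (blue) in each row. The 10 genes with an asterisk have all R1ko libraries below all WT libraries, Rbm39 with 52.4 to 58.8% in R1ko against 66.8 to 69.4% in WT.

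Most genes kept 1 leading transcript. Of 55 tested genes with more than 1 transcript, 38 had the same most abundant transcript in all 6 libraries and 17 did not, and in 46 the leading transcript over all libraries was protein-coding. Among the 9 others were Srsf3, led by the decay-annotated Srsf3-201 at 56.5, 61.0 and 61.3% of the gene in R1ko and 54.5, 57.5 and 57.2% in WT, and Hnrnpu, led by the decay-annotated Hnrnpu-206 at 63.1, 69.7 and 63.1% in R1ko and 57.3, 62.3 and 61.5% in WT. Srsf5 was led by the processed transcript Srsf5-206 at 27.0, 16.6 and 33.7% in R1ko and 23.1, 25.6 and 32.2% in WT. These leading transcripts were chosen after their values were seen. The leader by group mean differed between R1ko and WT in 9 genes. Over all libraries, the leaders of these genes held from 17.1% (Rbm5) to 52.8% (Rbm12) of the gene. The same count over all genes is not given, and the difference in leader was not tested.

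The shares of single transcripts were tested in 191 transcripts of 51 splicing factor genes, and 0 passed in limma with Benjamini-Hochberg adjustment over 20949 transcripts (0.0239% called, smallest adjusted p among the 191 0.426). An unadjusted p under 0.05 was found for 25, 12 higher and 13 lower, beside 5.09% of all transcripts higher and 4.64% lower. These 25 became 10 without R1ko replicate 2 (6.74% of all transcripts), 11 without WT replicate 1 (7.82%), and 14 without WT replicate 2 (7.86%) or WT replicate 3 (7.75%). The count was 17 without R1ko replicate 3 (8.68%) and rose to 35 without R1ko replicate 1 (13.59%). Rbm26-203, a coding form of a gene for nuclear RNA decay, had 13.0, 10.2 and 9.75% of Rbm26 in R1ko, against 19.5, 19.7 and 17.4% in WT. Rbm26-204, another coding form of the gene, had 19.9, 24.3 and 18.7% in R1ko, against 15.3, 15.0 and 13.8% in WT. The 2 forms thus lay on opposite sides, each without overlap. Srsf10-203, a coding form, had 10.3, 11.6 and 12.3% of Srsf10 in R1ko, against 5.599, 5.77 and 7.40% in WT. Hnrnph3-201, a coding form of a gene of the hnRNP H family, had 16.4, 17.1 and 16.7% in R1ko, against 9.16, 8.89 and 12.6% in WT. Hnrnpl-206, with a retained intron, had 5.08, 3.68 and 5.63% in R1ko, against 9.23, 7.87 and 8.77% in WT. None of these overlapped. Rbm6-201, a coding form of a relative of Rbm5, had 15.2, 14.7 and 19.2% in R1ko, against 12.2, 7.96 and 10.7% in WT. Rbm33-206, a coding form of a gene with a role in mRNA export, had 33.2, 39.3 and 42.3% in R1ko, against 30.1, 28.5 and 30.0% in WT. Rbm48-203, with a retained intron, had 33.5, 22.5 and 36.3% in R1ko, against 45.4, 38.5 and 47.9% in WT. Groups did not overlap in these 3 either. All transcripts named up to here in this paragraph were chosen from the 10 with the smallest p in limma, which favours separated groups. Their separation is thus not comparable with the 17.1% of all transcripts whose groups did not overlap. Hnrnpm-207, of a gene for a protein of the nuclear matrix, had 7.89, 0 and 0 TPM in R1ko, against 14.9, 5.97 and 17.8 TPM in WT, and overlapped. Srsf5-211, a processed transcript, had 59.3, 34.8 and 59.1 TPM in R1ko, against 87.7, 69.8 and 98.8 TPM in WT, without overlap but short of the threshold (limma with Benjamini-Hochberg adjustment, adjusted p 0.828).

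Other genes of splicing showed no call either. Over all genes tested, 3.69% had an unadjusted p under 0.05 in limma, 11.3% did after scaling, and 44.3% lay below 0. Of 45 tested splicing regulators outside these families, 0 passed in the gene test (limma, Benjamini-Hochberg), 1 had an unadjusted p under 0.05 (12 after scaling), 13 lay above and 32 below 0, and the median log2 fold change was -0.088. The 1 was Srrm2, a large scaffold protein of nuclear speckles, with 253, 94.6 and 255 TPM in R1ko against 314, 214 and 335 TPM in WT. R1ko replicate 2 was far below the rest and the groups overlapped. Of 9 kinases of SR proteins, which set their location and activity by phosphorylation, 0 passed and 0 had an unadjusted p under 0.05, with 1 above and 8 below 0 and a median of -0.12. Clk1, a nuclear kinase of this group chosen after its values were seen, had 111, 62.6 and 118 TPM in R1ko against 122, 98.9 and 143 TPM in WT, again with replicate 2 lowest in both genotypes. The 50 core spliceosome genes were evenly divided, with 25 above and 25 below 0, a median of -0.0091 and 0 with an unadjusted p under 0.05 (6 after scaling). Of 16 genes of nonsense-mediated decay and the exon junction complex, 0 passed and 0 had an unadjusted p under 0.05 (2 after scaling), with 7 above and 9 below 0 and a median of -0.024.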

How the data were processed

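Whole-colon RNA of 3 R1ko and 3 WT mice was compared. The authors deposited 1 table of transcript TPM with no counts, so read depth is unknown and counting intervals cannot be given. The submitters' processing notes name kallisto 0.43.1, sleuth (its results were not used) and mm10. Of the 132639 deposited lines, 1433 repeated a transcript with the same TPM (largest difference 0), so its columns exceed the usual total, and each of the 131206 transcripts was taken once. Columns of values left unused numbered 0. Identical copies under several Ensembl identifiers were merged (Srsf1 has 2). Types and coordinates came from GENCODE M21 (mm10), which may differ from the set the authors used and gave a type for 444 of 447 splicing factor transcripts. Overlapping transcripts of a gene, near-identical copies (Rbm4 and Rbm4b, pseudogenes) and, as no source states the use of strand, antisense transcripts can shift TPM between features.

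TPM were summed by symbol. limma 3.58.1 in R 4.3.3 (lmFit, eBayes with trend) was fitted to log2(TPM + 0.5) of genes and of transcripts with a mean of at least 1 TPM, which understates changes of low values. It was also fitted to the log2 odds of a transcript against the others of its gene (gene mean of at least 5 TPM, mean share 5 to 95%), and of all other types against protein_coding. Benjamini-Hochberg adjustment ran over all features of a test, with a threshold of 0.05. All models were tested on simulated data. The labels call the 6 samples separate mice. Whether the replicate numbers pair the mice was not settled. Correlations of deviations across genes were 0.05, 0.13 and 0.18 for same-numbered libraries, and from -0.24 to 0.098 for libraries of different number. Across transcript shares they were -0.067, 0.027 and 0.0062 for same-numbered libraries, and from -0.095 to 0.088 for libraries of different number. Alternatives were pseudocounts of 0.1 and 1, median-of-ratios scaling (factors 1.06, 0.918 and 1.07 in R1ko, 1.13, 0.786 and 1.10 in WT), no variance trend, a replicate block, other filters, and each library left out in turn.

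Named were the genes past a threshold, per group the 5 most abundant and the 4 with the smallest p, the 10 transcripts with the smallest p in each transcript test, the 6 genes with the smallest p and the 6 with the highest share in the test of types, Rbm39 and its transcripts. The members and lists were chosen with earlier results of these data known.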

Additional observations from a re-analysis of the deposited data

How the results depend on the processing

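Counts of splicing factors past the threshold in the gene test and in the test of transcript types were 0 under all 13 alternatives each (limma), and leaving out 1 library gave 0 to 0. The count of transcripts past the threshold, 1 as reported, was 0 with no filter, 0 at a mean of at least 5 TPM (where Rbm39-216 was not tested) and 0 to 2 with 1 library left out: 0 without WT replicate 2, and 2 without R1ko replicate 1 (Hnrnpm-207 besides) or WT replicate 1 (an Srsf10 transcript besides). The cause was not tested beyond the filter. The adjusted p of Rbm39-216 ran from 0.000726 to 0.262, and its call supports nothing since it was tested through R1ko alone. The count of transcript shares past the threshold was 1, Rbm39-216, in place of 0 with mean shares from 1 to 99%, and leaving out 1 library gave 0 to 0.

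The replicate numbers were not shown to pair the mice. With the replicate block, 0 genes, 0 transcripts, 0 shares and 0 genes by type passed, so the block removed the call of Rbm39-216. At an unadjusted p under 0.05 in limma, the block gave 74 splicing factor transcripts in place of 34 (10.9% of all transcripts). Retained-intron transcripts among them numbered 40 of 73 in place of 18 (24.3% of all retained-intron transcripts lower). Genes numbered 1 in place of 0 (7.38% of all genes), shares 22 in place of 25 (9.32%) and genes by type 7 in place of 6 (14.4%).

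Retained-intron transcripts with a negative log2 fold change numbered 63 to 72 of 73 with 1 library left out, those with a lower share 35 to 37 of 38, and genes with a lower share of other types 28 to 33 of 38.

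Of 861 values of named features under alternatives, 23 changed sign. Hnrnpf, at a log2 fold change of 0.00, had -1.75e-05 with a pseudocount of 1 and -0.030 after scaling, where Srsf3 had -0.013. With 1 library left out, the log2 fold change ran from -0.16 to 0.090 for Hnrnpf, -0.13 to 0.13 for Hnrnpa2b1, -0.21 to 0.16 for Hnrnpab, -0.19 to 0.053 for Hnrnpk, -0.22 to 0.073 for Rbm17, -0.27 to 0.035 for Srsf1, -0.14 to 0.14 for Srsf3, -0.23 to 0.012 for Hnrnpa1 and -0.043 to 0.62 for Rbm39-223.

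With 3 mice a genotype and no read counts, the exact permutation tests cannot reach 0.05, and depth limits on low transcripts cannot be given.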
